A study of Mus musculus with 8 samples.

Results

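The apelin and Cxcl12 signalling genes of the mouse lung are described here. They are 5 of the 20863 genes named on the array: the ligands Apln and Cxcl12, the apelin receptor Aplnr, and the Cxcl12 receptors Cxcr4 and Ackr3. They were picked by gene symbol (Ackr3 is written Cxcr7 in the platform annotation), with their levels in the comparison of Fra-2 transgenic and wild-type lung already known. Their differences between the groups are therefore given as a description, with no test. Whole lung RNA of 8 mice was hybridised to single-colour Agilent arrays, 1 array per mouse. The 4 control mice were wild type. The other 4 over-expressed Fra-2 from a transgene, and these are the Fra-2 TG mice of the labels. All 8 mice were on the C57BL/6 background and 8 weeks old. The labels name neither the promoter that drives the transgene nor the sex of the mice. Fra-2, the product of Fosl2, is an AP-1 transcription factor, and its over-expression in mice is studied because they develop pulmonary vessel remodelling and lung scarring.

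Apelin is a small secreted peptide that binds the G protein-coupled receptor Aplnr on endothelial cells, where signalling leads to nitric oxide release and vessel growth. In lung capillaries the ligand and the receptor mark different cells: Apln is made by aerocytes, the large capillary cells over the gas exchange surface, and Aplnr by general capillary cells, which act as their progenitors. Cxcl12 is a chemokine of stromal and vascular cells. Cxcr4 couples it to G proteins and guides leukocytes and sprouting endothelium, whereas Ackr3 takes Cxcl12 up for degradation and signals mainly through arrestins.

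In Fra-2 transgenic lung the apelin ligand was lower and its receptor higher, and Cxcl12 and its scavenging receptor Ackr3 were higher, while Cxcr4 had nearly the same mean in both groups. On the log2 scale of normalised intensity, the transgenic minus wild-type difference was -1.03 for Apln (moderated standard error, SE, 0.22), 1.56 for Aplnr (SE 0.25), 1.12 for Cxcl12 (SE 0.25), 1.34 for Ackr3 (SE 0.25) and -0.03 for Cxcr4 (SE 0.18), with 4 mice per group. The 4 transgenic values did not overlap the 4 wild-type values in 4 of the 5 genes, 3 of them higher and 1 lower in transgenic lung. Over all genes such separation was found in 6.53%, with 3.99% higher and 2.54% lower. Nothing is read from that contrast, since the genes were chosen with these values in view. In a whole-lung sample, fewer cells of a type and less RNA per cell cannot be told apart.

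The arrays shared 1 distribution, with a median intensity of 26.6 on each, and 6 of them resembled their group closely. The mice numbered 4 in each group stood apart: their mean correlations with the other arrays of their group, over all spots, were 0.966 (wild type) and 0.971 (transgenic), against 0.973 for wild-type mice 1 to 3 and 0.975 for transgenic mice 1 to 3. The differences of the 5 genes are therefore also given without both mice numbered 4, which leaves 3 per group; those of other genes and lists are given over all 8 mice. Of the spots for Fosl2, the targeted gene, the brighter had a difference of -0.75 with overlapping groups (10.12 to 11.01 in wild-type and 9.38 to 10.62 in transgenic mice). The dimmer was higher in all transgenic mice (6.35 to 7.85, against 3.44 to 5.58), a difference of 2.45. Its wild-type mean, 4.52, lay under the floor for dim signals, the median of all spots at 4.74, so no fold is given. The spots differ in direction and do not settle the check of the genotype labels. Lung epithelial markers were bright in all mice: Sftpc, Scgb1a1 and Sftpa1 lay within 0.1 log2 units of the highest value on the arrays in both groups, where a probe cannot show a rise, and Ager averaged 13.76 in wild-type and 13.56 in transgenic mice. Over all genes, 45 of 20863 passed the test (limma, Benjamini-Hochberg adjusted p under 0.05), which is 0.216%, with 0.125% higher and 0.0911% lower.

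Because Fra-2 acts on DNA as part of AP-1, the 250 bases before the start of the genes are shown, from RefSeq on build GRCm38.p6, for the 4 of the 5 genes that the table holds (Apln, Cxcl12, Cxcr4 and Ackr3; Aplnr has no entry). Each runs 5′ to 3′ on the strand of its gene and ends at the base before the annotated start. The windows are chrX:48034854-48035103 on the minus strand for Apln, chr6:117168285-117168534 on the plus strand for Cxcl12, chr1:128592300-128592549 on the minus strand for Cxcr4 and chr1:90203730-90203979 on the plus strand for Ackr3. Capitals mark every match, on either strand, to the motifs listed after the sequences.
Apln: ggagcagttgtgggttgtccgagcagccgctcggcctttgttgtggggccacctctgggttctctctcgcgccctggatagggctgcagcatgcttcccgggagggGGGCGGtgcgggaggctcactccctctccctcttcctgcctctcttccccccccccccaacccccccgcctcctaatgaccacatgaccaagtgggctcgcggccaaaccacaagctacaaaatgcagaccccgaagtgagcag
Cxcl12: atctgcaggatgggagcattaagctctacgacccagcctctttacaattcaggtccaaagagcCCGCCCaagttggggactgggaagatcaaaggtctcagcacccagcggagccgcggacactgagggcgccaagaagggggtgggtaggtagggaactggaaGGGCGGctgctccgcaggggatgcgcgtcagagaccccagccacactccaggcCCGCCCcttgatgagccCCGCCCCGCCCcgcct
Cxcr4: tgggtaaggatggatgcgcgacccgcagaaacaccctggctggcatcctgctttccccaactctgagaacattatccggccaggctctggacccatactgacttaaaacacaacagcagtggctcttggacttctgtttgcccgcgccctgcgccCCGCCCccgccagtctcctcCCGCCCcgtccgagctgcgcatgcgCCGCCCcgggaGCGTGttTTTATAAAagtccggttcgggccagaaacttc
Ackr3: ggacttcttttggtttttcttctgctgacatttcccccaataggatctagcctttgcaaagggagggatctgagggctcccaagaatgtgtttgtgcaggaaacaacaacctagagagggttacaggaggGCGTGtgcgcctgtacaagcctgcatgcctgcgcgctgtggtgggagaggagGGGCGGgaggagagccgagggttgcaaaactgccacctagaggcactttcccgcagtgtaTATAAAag

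The letters searched were TGANTCA (AP-1), TGACGTCA (the cyclic AMP response element, which AP-1 and ATF dimers also bind), ACGTG, the core of the hypoxia response element, since hypoxia is known to induce these genes, and its variant that starts with G, GCGTG. The TATA box (TATAAA) and the GC box (GGGCGG) were searched too. Neither AP-1 motif was found in any of the 4 windows. Among 32851 windows of the same length before RefSeq starts, 6.75% held TGANTCA and 1.55% held TGACGTCA. The absence says only that these letters are not in these 250 bases. GCGTG, present in 28.2% of all windows, occurred in Cxcr4, 39 to 35 bases before the start, and in Ackr3, 120 to 116 bases before it. ACGTG, present in 16.6%, occurred in none of the 4. TATAAA, in 12.4% of all windows, lay 30 to 25 bases before the start of Cxcr4, where it overlaps a match on the opposite strand, and 8 to 3 bases before that of Ackr3. GGGCGG, found in 32.7% of all windows, occurred in all 4, with 1 match in Apln, 5 in Cxcl12 (2 of which share 1 base), 3 in Cxcr4 and 1 in Ackr3. The windows of Apln (65.2% G and C), Cxcl12 (64.4%) and Cxcr4 (61.2%) were richer in G and C than the median window (52.4%), and that of Ackr3 stood at 54.0%. A match is a string of letters and not a site shown to be bound.

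Apln, the apelin precursor, was read by 1 spot. Its log2 levels were 9.98, 10.76, 10.16 and 10.52 in wild-type mice 1 to 4 and 9.01, 9.72, 9.29 and 9.28 in transgenic mice 1 to 4. All 4 transgenic mice lay below all 4 wild-type mice, and the space between the groups, from wild-type mouse 1 to transgenic mouse 2, was 0.26. The means were 10.35 ± 0.35 and 9.33 ± 0.29 (SD, n = 4 each), a 2.04-fold lower level in transgenic lung. Without both mice numbered 4 the difference was -0.96. The spread within each group was alike, with ranges of 0.77 and 0.71.

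Aplnr, the apelin receptor, was likewise read by 1 spot and moved the other way. Wild-type mice 1 to 4 had levels of 8.75, 9.12, 8.32 and 8.31, and transgenic mice 1 to 4 had 9.84, 10.42, 10.58 and 9.90. The lowest transgenic mouse, number 1, stood 0.72 above the highest wild-type mouse, number 2, the widest separation among the 5 genes. Means were 8.63 ± 0.39 and 10.18 ± 0.37 (SD, n = 4 each), or 2.94-fold higher in transgenic lung. The difference was 1.55 without both mice numbered 4. Set against the wild-type mean of each gene, transgenic mouse 1 was the lowest for Apln (-1.34) and also the lowest for Aplnr (1.21), so the mouse with the largest shift in the ligand had the smallest in the receptor.

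**Figure D1:**
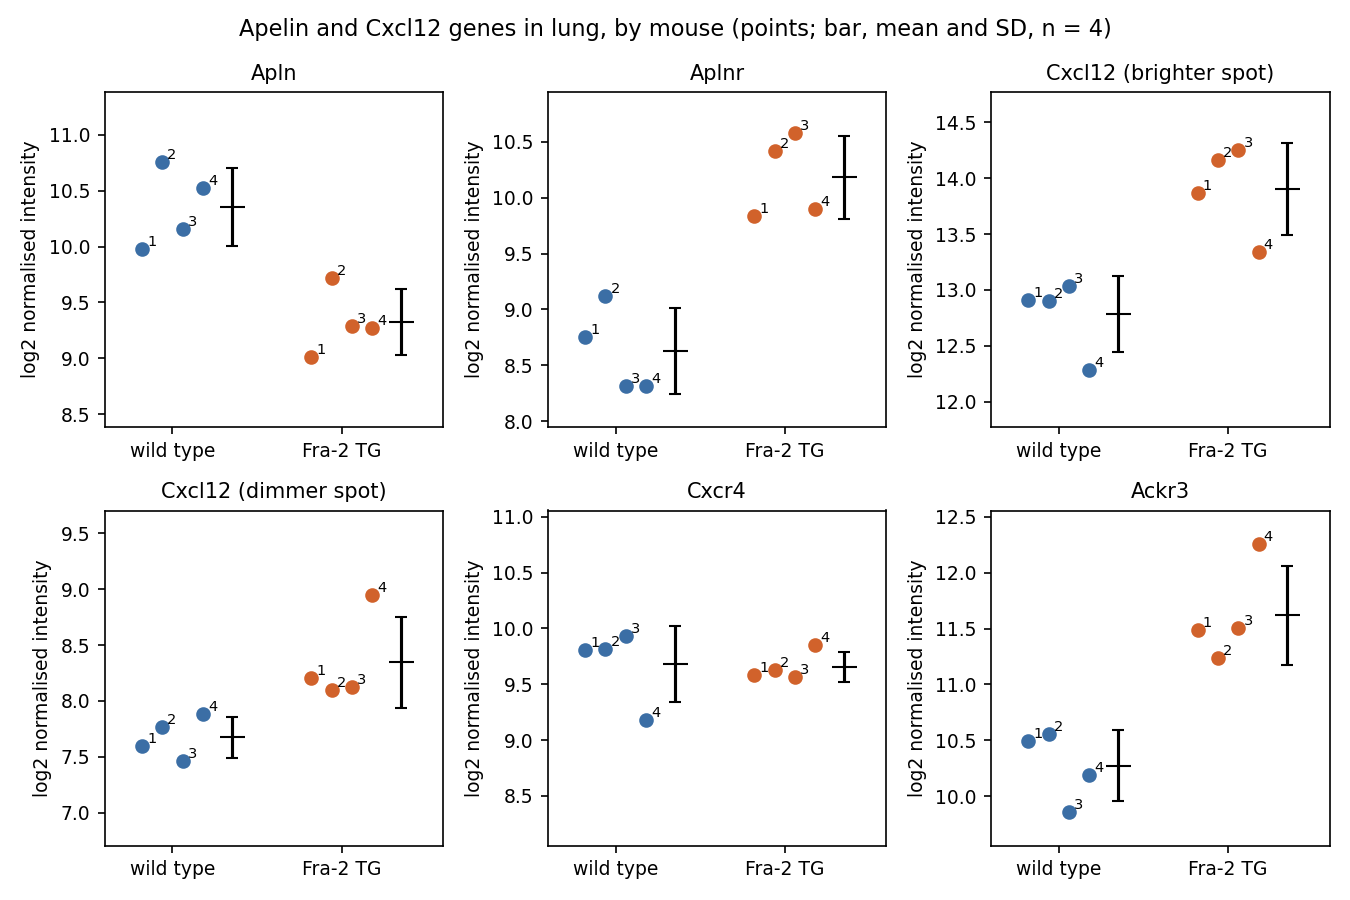
Log2 normalised intensity of the 6 spots of Apln, Aplnr, Cxcl12, Cxcr4 and Ackr3 in each mouse (points, numbered as in the labels; blue wild type, orange Fra-2 TG), with the group mean and SD (bar, n = 4). Every panel spans the same number of log2 units. The groups are separate for Apln (lower in transgenic mice), Aplnr, both Cxcl12 spots and Ackr3, and overlap for Cxcr4.

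Cxcl12, the chemokine ligand, was read by 2 spots, which the annotation assigns to different RefSeq transcripts of the gene. At the brighter spot (NM_001012477), which stands for the gene, wild-type mice 1 to 4 read 12.91, 12.90, 13.03 and 12.29, and transgenic mice 1 to 4 read 13.87, 14.16, 14.26 and 13.34. Mouse 4 was the lowest of its group in both genotypes, and the groups were separated by 0.31. The means were 12.78 ± 0.34 and 13.91 ± 0.41 (SD, n = 4 each), 2.18-fold higher in transgenic lung. Without both mice numbered 4 the difference was 1.15, and wild-type levels then ran from 12.90 to 13.03 against 13.87 to 14.26.

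At the dimmer spot (NM_021704), wild-type mice 1 to 4 read 7.59, 7.77, 7.46 and 7.88, and transgenic mice 1 to 4 read 8.21, 8.10, 8.13 and 8.95. It was also higher in every transgenic mouse, by 0.67 on average (SE 0.21; means 7.67 ± 0.19 and 8.35 ± 0.41, SD, n = 4 each), a 1.59-fold difference against 2.18-fold at the brighter spot. Here mouse 4 was the highest of its group in both genotypes, opposite to the brighter spot. From high to low, wild-type mice ranked 3, 1, 2, 4 at the brighter spot and, fully reversed, 4, 2, 1, 3 at the dimmer one. Mice 1 and 2 were nearly tied at the brighter spot (12.91 and 12.90). The transgenic order, 3, 2, 1, 4 and then 4, 1, 3, 2, was not fully reversed. Transgenic mouse 4 stood 0.56 above the wild-type mean at the brighter spot and 1.27 above it at the dimmer spot, while transgenic mouse 3 stood 1.47 and 0.45 above. Without both mice numbered 4 the dimmer spot differed by 0.54. Which part of each transcript the spots read is not known here.

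**Figure D2:**
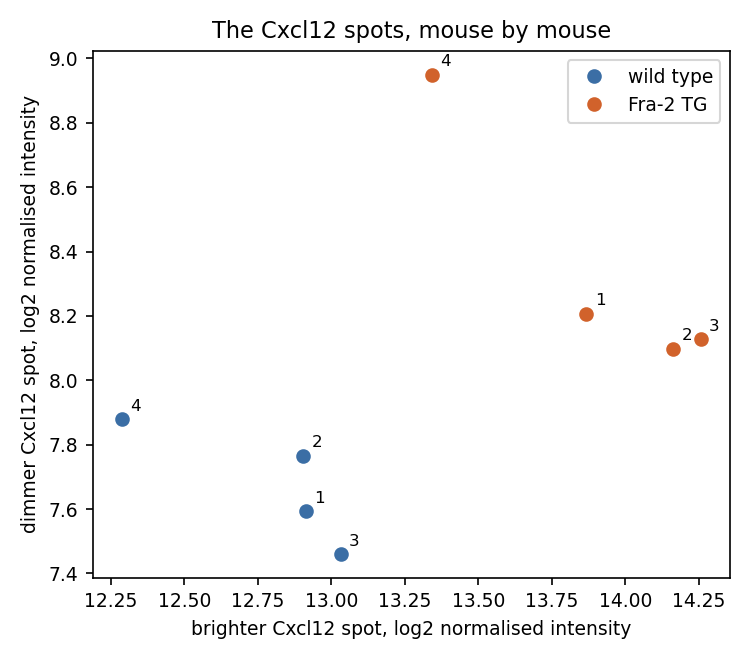
Log2 normalised intensity of the brighter Cxcl12 spot (horizontal axis) and the dimmer one (vertical axis) in each of the 8 mice, numbered as in the labels (blue wild type, orange Fra-2 TG). Transgenic mice are higher on both axes, and within each group mouse 4 is lowest on the horizontal axis and highest on the vertical one.

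Cxcr4 is the signalling receptor of Cxcl12. Its log2 level was 9.81, 9.82, 9.93 and 9.18 for wild-type mice 1 to 4, and 9.58, 9.63, 9.56 and 9.85 for transgenic mice 1 to 4. Wild-type mouse 4 was the lowest of all 8 and transgenic mouse 4 the highest of its group, and the groups overlapped. The means were 9.68 ± 0.34 and 9.66 ± 0.13 (SD, n = 4 each). This overlap rested on the mice numbered 4. Among the other 3 against 3, wild-type levels ran from 9.81 to 9.93 and transgenic levels from 9.56 to 9.63, with no overlap and a difference of -0.26. Separation in that smaller comparison was found in 17.7% of all genes.

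Ackr3 is the atypical receptor that removes Cxcl12. Wild-type mice 1 to 4 read 10.49, 10.55, 9.86 and 10.19 for it on the log2 scale, and transgenic mice 1 to 4 read 11.48, 11.23, 11.50 and 12.25. Every transgenic mouse was above every wild-type mouse, with 0.68 between the groups. Means were 10.27 ± 0.32 and 11.62 ± 0.44 (SD, n = 4 each), a 2.54-fold higher level in transgenic lung. Transgenic mouse 4 was the highest, 1.98 above the wild-type mean, against 0.96 to 1.23 for the other 3. Without both mice numbered 4 the difference was 1.10. The mice that were highest for the Cxcl12 ligand at its brighter spot were not those highest for Ackr3: transgenic mouse 4 had the most Ackr3 signal and the least at that spot of its group. At the dimmer Cxcl12 spot the order differed, and transgenic mouse 4 was the highest of its group there too (8.95).

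**Figure D3:**
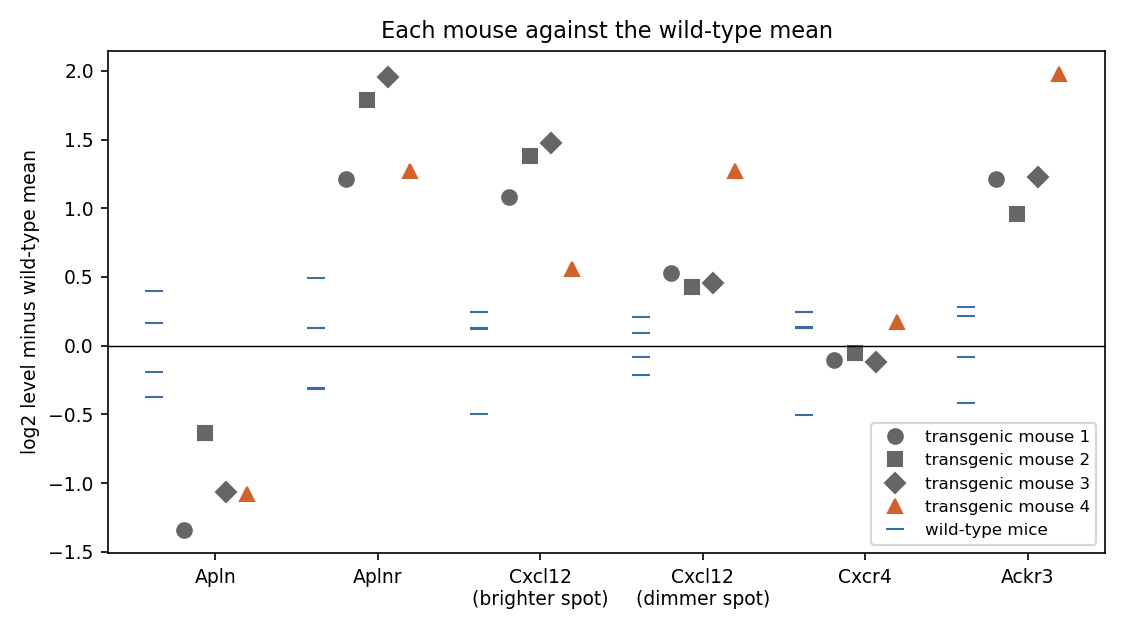
Level of each spot in each mouse minus the wild-type mean of that spot, in log2 units (blue ticks, wild-type mice; symbols, transgenic mice 1 to 4, with mouse 4 in orange). Transgenic mouse 4 is nearest to the wild-type mean at the brighter Cxcl12 spot (0.56) and farthest from it at the dimmer Cxcl12 spot (1.27) and at Ackr3 (1.98).

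The spread between mice of 1 group was at or somewhat above that of most genes. Pooled over both groups, the SD was 0.32 for Apln, 0.38 for Aplnr, 0.38 for Cxcl12 at its brighter spot, 0.26 for Cxcr4 and 0.39 for Ackr3, where the median over the 14312 genes above the dim-signal floor was 0.25. All 6 spots lay well above that floor in every mouse. In units of the pooled SD, the size of the group difference was 3.19 for Apln, 4.11 for Aplnr, 2.99 for the brighter Cxcl12 spot, 3.49 for Ackr3 and 0.10 for Cxcr4.

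Patterns over the 8 mice were compared by the root mean square difference between genes, each taken relative to its own mean. This is a likeness of shape and size together and includes the group difference. The 5 genes were chosen with that difference known, so nothing is read from their distances or from the counts of closer genes. Each count is taken from 1 gene of the pair only. Among the 5 genes Aplnr and Cxcl12 were closest, at 0.36 log2 units, with 13 genes above the floor closer to Aplnr than Cxcl12 was. Aplnr and Ackr3 followed at 0.47, with 68 genes closer to Aplnr. Cxcl12 and Ackr3 lay 0.59 apart, with 3166 genes closer to Cxcl12 than Ackr3 was. Apln and Aplnr were farthest apart, at 1.33. The median gene lay 0.87 from Aplnr and 0.68 from Cxcl12.

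Over the same 8 mice, the genes nearest to Apln were Spag11b (0.24), Nrgn (0.26) and Wnt10b (0.27), which encodes a Wnt ligand. Nearest to Aplnr were Fam181b (0.23), Cenpt (0.24), which encodes a centromere protein, and Abcb4 (0.29), which encodes a phospholipid transporter. Dnah8 (0.14), Rtl8a (0.14) and Edn3 (0.14), which encodes endothelin 3, were nearest to Cxcl12. Edn3 was dim, with a wild-type mean of 4.72 under the floor. For Ackr3 these were Asb4 (0.19), Micall2 (0.25) and Ripk3 (0.28), which encodes a kinase of necroptosis, and for Cxcr4 they were Rhog (0.07), Eif2s3x (0.07) and Ube2j1 (0.08). Rhog, Eif2s3x and Ube2j1 shared with Cxcr4 a low value in wild-type mouse 4 and differed by 0.01, 0.07 and 0.05 between the groups.

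The other genes of these pathways were tested over all genes. Of 97 listed ligands, peptidases, signalling partners, regulators, related receptors and tip cell genes, 95 were measured: 0 rose, 1 fell and 94 did not pass (limma, adjusted over all genes; before adjustment, at p under 0.05, there were 8 higher and 4 lower, or 12.6%, where all genes gave 9.15%). Their median difference was 0.02, against 0.01 over all genes. Of the 95, Cxcl11 and Epas1 lay within 0.1 log2 units of the highest value on the arrays in both groups and could not show a rise; they count among those that did not pass. The share past the threshold was 1.05%, 1 gene, against 0.216% of all genes. The lists were chosen with earlier results of these data known, so no support is drawn from these shares. The 1 gene was Esm1, an endothelial proteoglycan that marks sprouting tip cells along with Apln and Cxcr4. Esm1 went from 11.41 ± 0.26 to 9.19 ± 0.59 (SD, n = 4 each), a 4.64-fold fall (difference -2.21 on the log2 scale, SE 0.29; adjusted p = 0.0303 with limma). The gene passed again in 1 of the 8 fits on 7 mice, the one without transgenic mouse 2; in the other 7 the limma adjusted p lay between 0.0521 and 0.134, and it was 0.0798 without both mice numbered 4. Of the 15 tip cell genes the other 14 did not pass, and the list's median was 0.08.

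On the apelin side, 0 of 4 measured ligands and peptidases passed (limma; 3 higher at an unadjusted p under 0.05; median 0.42). Furin, a convertase of precursor proteins, differed by 0.30 (SE 0.12), Pcsk5, a related convertase, by 0.53 (SE 0.20) and Prcp, a carboxypeptidase that can trim apelin, by 0.72 (SE 0.27). The second apelin receptor ligand, Apela, was not analysed here. Of 7 apelin response genes 0 passed (limma; 1 higher at an unadjusted p under 0.05; median 0.13). Nos3, which makes nitric oxide in endothelium, had a difference of 0.76 (SE 0.14, limma adjusted p = 0.125). Mef2c, a transcription factor of vascular and muscle cells, differed by 0.32 (SE 0.20) and the growth factor receptor Fgfr1 by -0.27 (SE 0.15).

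Around Cxcl12, 0 of 15 partners and proteases passed (limma; 0 at an unadjusted p under 0.05; median -0.02, or -0.03 without Cxcl11). Cpm, a carboxypeptidase, differed by -0.37 (SE 0.24). The adrenomedullin receptor subunits Ramp2 and Ramp3, listed because Ackr3 also binds adrenomedullin, differed by -0.26 (SE 0.22) and 0.84 (SE 0.39). Ramp3 reached 11.91 in transgenic mouse 4, while transgenic mice 1 to 3 had 10.09 to 10.32, so the mouse highest for Ackr3 was the highest for Ramp3 too. Of 9 other CXC and atypical chemokine receptors 0 passed (limma; at an unadjusted p under 0.05, 1 higher and 1 lower; median -0.14). The atypical receptor Ackr4, a scavenger of other chemokines, differed by 1.00 (SE 0.30), with transgenic mouse 4 at 5.89 and the other 3 at 7.01 to 7.11. Cxcr1, a neutrophil receptor, differed by -1.13 (SE 0.42) and Cxcr5, a B cell receptor for Cxcl13, by 0.97 (SE 0.59).

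Shared transducers and regulators gave no call either. Of 27 G protein, kinase, arrestin and Rgs genes 0 passed (limma; 1 lower at an unadjusted p under 0.05; median 0.06), with Rgs2, which shortens G protein signals, at -0.31 (SE 0.11), Gnb1 at 0.30 (SE 0.13) and Pik3cg, a lipid kinase downstream of Cxcr4, at 0.46 (SE 0.23). Of 21 transcriptional and upstream regulators 0 passed (limma; 1 lower at an unadjusted p under 0.05; median 0.01, or 0.03 without Epas1). Bmpr2, the bone morphogenetic protein receptor mutated in heritable pulmonary hypertension, whose signalling is known to induce Apln, differed by -0.65 (SE 0.17, limma adjusted p = 0.278). Notch1 differed by -0.74 (SE 0.35) and Hif1a, the hypoxia-inducible factor, by 0.35 (SE 0.15).

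Markers of the cells that carry these genes were read beside them, and their part in the differences was not tested. Over all genes, 52.4% of the differences were positive. For Apln, the 7 measured aerocyte markers had a median difference of -0.28, with 6 of 7 negative and 0 past the test (limma; 2 lower at an unadjusted p under 0.05). Their mean level ran from 12.41 to 12.77 in wild-type and from 11.74 to 12.45 in transgenic mice. Fibin had the largest difference, -1.23 (SE 0.23, limma adjusted p = 0.136), followed by Chst1 at -0.55 (SE 0.20) and Ednrb, the endothelin B receptor, at -0.49 (SE 0.26). For Ednrb, transgenic mouse 4 stood at 9.25 and the others of its group at 10.02 to 10.14. Car4, the 1 positive marker, differed by 0.20, while Kdr (-0.04) and Emp2 (-0.01) hardly differed. For Aplnr, the 8 general capillary markers had a median of 0.23, with 5 of 8 positive and 0 past the test (limma; 1 higher at an unadjusted p under 0.05), and mean levels of 13.12 to 13.56 and of 13.16 to 13.85. Among them Sema3c differed by 0.67 (SE 0.18), Cd93 by 0.41 (SE 0.18) and Gpihbp1 by -0.27 (SE 0.13). Aplnr differed by 1.56, more than any of the 8, and Apln by -1.03, a smaller fall than that of Fibin. Both were chosen with these values known, so nothing is read from their size beside the markers.

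The 12 pan-endothelial markers had a median of 0.09 (0 past the test with limma; 2 higher at an unadjusted p under 0.05), and their mean levels, 12.19 to 12.58 in wild-type and 12.33 to 12.85 in transgenic mice, overlapped. Of these Emcn differed by 1.18 (SE 0.33), Tie1 by 0.57 (SE 0.18) and Pecam1 by 0.48 (SE 0.27). These were the highest of the 12, of which 9 had positive and 3 negative differences, with Eng the lowest at -0.28. Arterial endothelium, which expresses Cxcl12 strongly, had a median of 0.03 over 7 markers (0 past the test with limma; at an unadjusted p under 0.05, 2 higher and 1 lower), with Sox17 at 0.87 (SE 0.14, limma adjusted p = 0.0702), the connexin Gja4 at 0.98 (SE 0.30) and Dkk2, dim, at -0.59 (SE 0.20). The list's mean levels were 10.10 to 10.20 and 10.10 to 10.48. Stromal sources of Cxcl12 gave medians of 0.02 over 9 fibroblast markers and -0.12 over 8 pericyte markers, with 0 past the test in either (limma; 1 higher in each at an unadjusted p under 0.05), and 0.33 over 4 mesothelial markers (0 past the test; 1 higher at an unadjusted p under 0.05). Mean fibroblast levels were 12.06 to 12.27 and 12.06 to 12.31, and mean pericyte levels 9.43 to 9.75 and 9.21 to 9.73. For mesothelium they were 8.75 to 9.45 in wild-type and 9.07 to 9.93 in transgenic mice.

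For Cxcr4, which most leukocytes carry, marker lists of its carriers differed in opposite directions. All 9 T cell markers had positive differences (median 1.09; 0 past the test with limma, 8 higher at an unadjusted p under 0.05), and their mean level, 7.62 to 8.32 in wild-type and 8.77 to 9.35 in transgenic mice, did not overlap. Cd5 differed by 1.40 (SE 0.24), Lat by 1.15 (SE 0.21) and Tcf7 by 0.85 (SE 0.14), while Cd4 hardly differed (0.03, SE 0.14). The 5 measured B cell markers were all positive as well (median 0.72; 0 past the test with limma, 1 higher at an unadjusted p under 0.05), with mean levels of 8.28 to 9.66 and of 9.20 to 10.54. All 6 NK cell markers were negative (median -1.79) and 2 of them, Gzma and Ncr1, fell (limma adjusted p = 0.00709 and 0.0150). Their mean level was 8.28 to 9.16 in wild-type and 6.60 to 7.07 in transgenic mice. Ncr1 no longer passed when transgenic mouse 1 or 4, or wild-type mouse 2, 3 or 4, was left out (limma adjusted p from 0.0521 to 0.0725), nor without both mice numbered 4 (0.0995). The 5 neutrophil markers were negative too (median -0.44; 0 past the test with limma, 0 at an unadjusted p under 0.05), at 12.53 to 13.75 and 11.83 to 12.83. Of 6 macrophage and monocyte markers 1 fell, Marco (limma adjusted p = 0.0105), and the median was 0.27. Marco missed the threshold when transgenic mouse 1 or 2 was left out (limma adjusted p = 0.0525 each) and without both mice numbered 4 (0.0853). Venous markers, 5 in number, had a median of -0.11, and 6 lymphatic markers had one of 0.34, with 0 past the test in either (limma; 0 and 1 at an unadjusted p under 0.05). In these marker lists 4 genes had a group mean under the floor: Ncr1 and Dkk2 in transgenic mice, Ackr1 in wild-type mice and Reln in both. None was listed at 0.

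**Figure D4:**
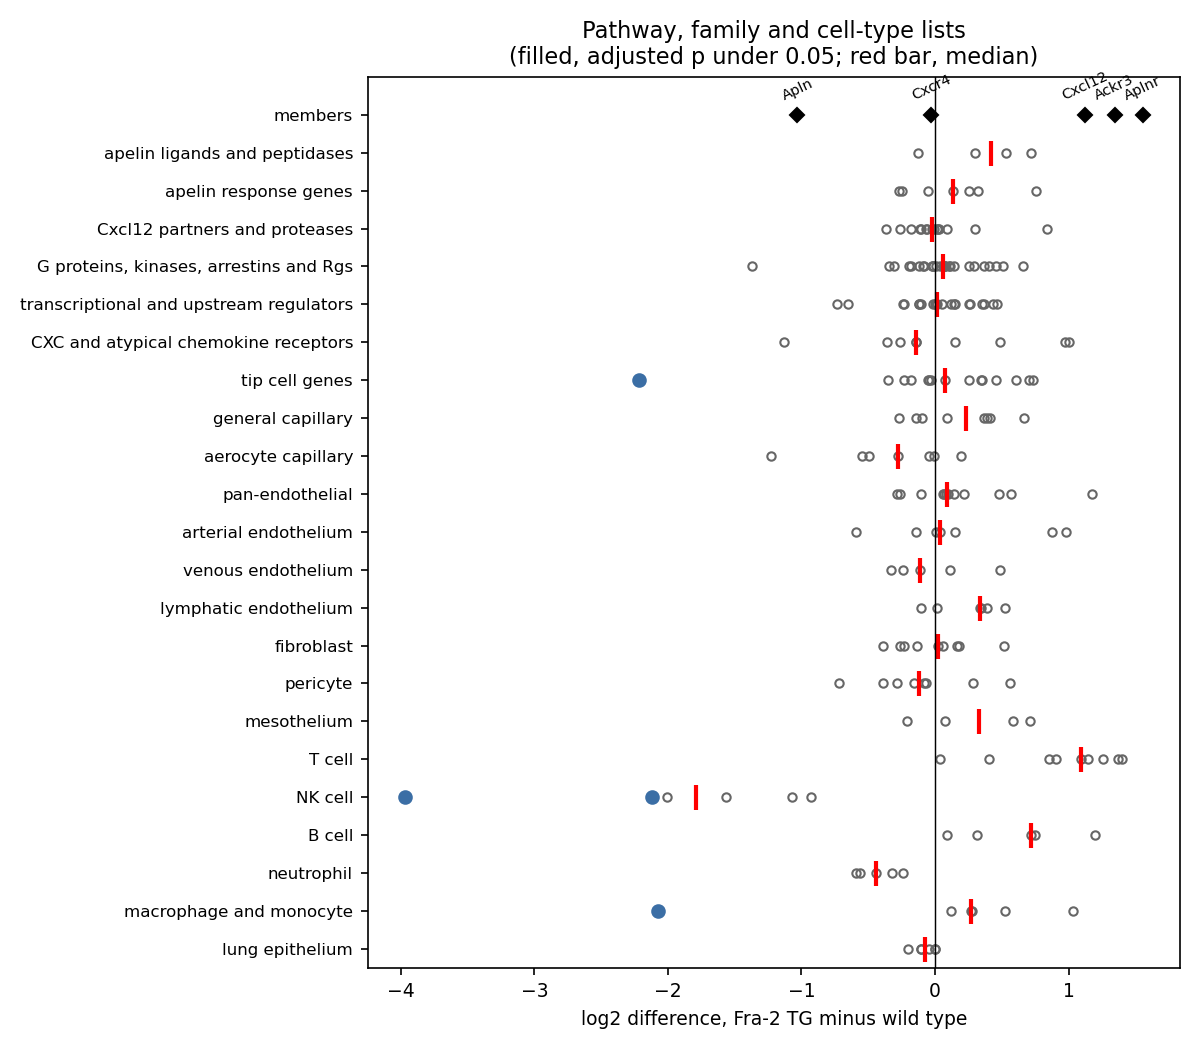
Log2 difference, Fra-2 TG minus wild type, of each measured gene (circles) in the pathway, family and cell-type lists, with the list's median (red bar); filled circles passed the test over all genes. Apln, Cxcr4, Cxcl12, Ackr3 and Aplnr, in the top row (black diamonds), were not tested. The filled circles are Esm1 among tip cell genes, Gzma and Ncr1 among NK cell markers and Marco among macrophage markers.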

How the data were processed

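The deposited table holds linear intensity for 62976 spots on 8 Cy5-labelled arrays, which the authors had already brought to 1 distribution. Its background method and centring are unknown here. Listed in the submitters' processing notes, with no role, are limma 3.14.4 and R 2.15.1. Platform annotation gave 31465 spots 1 gene symbol, none several, and left 31511 unnamed here. RefSeq accessions updated 2933 symbols. The spot with the highest mean over 8 arrays stood for each of 20863 genes. Log2 intensities, with no offset, were fitted by group with limma 3.58.1 (R 4.3.3), with no other term and with Benjamini-Hochberg adjustment over all genes. The procedure was run on simulated data with independent normal noise for each gene and no array that stood apart. That run was required only to recover the median of known shifts, so it does not vouch for the calls. Figures used Python 3.11.15 and matplotlib 3.10.9.

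Named genes are the 5 signalling genes, in each list those past the threshold or otherwise up to 3 with the smallest p, and the 3 nearest genes to each of the 5. Not every marker so chosen is named in the text. The genes and lists were chosen with earlier results of these data known. Same-numbered mice are not known to be paired. For numbers 1 to 4 their deviations correlated at 0.14, -0.01, 0.15 and 0.08, against -0.16 to 0.11 for differently numbered mice. Whether same-numbered mice shared a batch was not tested. Alternatives were offsets, scalings, spot rules, a dim-gene filter, a variance model, a replicate block and mice left out. Where a group mean is under the floor no fold is given. The number of arrays limits the precision.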

Additional observations from a re-analysis of the deposited data

Results flagged for a closer look

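In 23 of 164 gene and group combinations, 1 mouse stood farther from the other 3 of its group than Dixon's 95% limit allows. For independent, normally distributed values chance alone gives about 1 in 20. These genes were read on the same 8 arrays and are not independent, so the count is a description and not a test. In 20 of the 23 the mouse was numbered 4. Rhog, Eif2s3x and Ube2j1 were picked for their likeness to Cxcr4, so their values repeat its own. Without genes picked by likeness the count was 20 of 134, of which 17 were mice numbered 4. Among the 5 signalling genes, wild-type mouse 4 was low for Cxcl12 at its brighter spot (12.29, the others 12.90 to 13.03) and for Cxcr4 (9.18, the others 9.81 to 9.93), and transgenic mouse 4 was high at the dimmer Cxcl12 spot (8.95, the others 8.10 to 8.21).

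Wild-type mouse 4 was also low for the genes nearest to Cxcr4, with log2 levels of 12.12 for Rhog, 8.01 for Eif2s3x and 9.78 for Ube2j1. It had the lowest level of its group for Gnb1 (11.27), Esm1 (11.02) and Gpihbp1 (13.69). Transgenic mouse 4 was low for Cpm (11.56), Ramp2 (14.90), Ackr4 (5.89), Ednrb (9.25), the venous marker Slc6a2 (8.94), the neutrophil receptor Csf3r (13.66) and the alveolar genes Sftpb (15.59) and Ager (13.01). It was high for Ramp3 (11.91), Cxcr5 (10.68) and the B cell gene Ms4a1 (12.54). The other 3 were Emcn, high in transgenic mouse 3 (11.04), Lyve1, low in transgenic mouse 1 (12.86), and Marco, high in wild-type mouse 2 (12.44).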

How the results depend on the processing

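Over the alternatives run, Apln kept a lower and Aplnr, Cxcl12 and Ackr3 a higher level in transgenic lung: the log2 difference lay between -1.16 and -0.90 for Apln, 1.42 and 1.72 for Aplnr, 0.67 and 1.31 for Cxcl12, and 1.08 and 1.47 for Ackr3. The low end for Cxcl12, 0.67, is its dimmer spot. That of Cxcr4 lay between -0.26 and 0.05 and was negative in 12 of 16 alternatives. With 1 mouse left out the ranges were -1.16 to -0.90 for Apln, 1.42 to 1.72 for Aplnr, 0.96 to 1.31 for Cxcl12, -0.19 to 0.05 for Cxcr4 and 1.13 to 1.47 for Ackr3.

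The count of genes past the threshold, 45, was 80 with an offset of 16, 88 with an offset of 32, 71 with dim genes filtered out, 118 with a trended, robust variance, 17 without both mice numbered 4 and 5 with the replicate block. It ran from 17 to 38 with 1 mouse left out. The count of other pathway genes, 1, became 2 with the offset of 32 and with the trended, robust variance, 0 without both mice numbered 4 and 0 with the replicate block, and 0 to 1 with 1 mouse left out. The offset of 32 joined with leaving out both mice numbered 4, added after seeing the data, gave 200 and 5. The cause was not tested. Mouse numbers do not show that samples are paired, so the block was not used in the Results. With the block the SE was 0.12 for Apln, 0.23 for Aplnr, 0.12 for Cxcl12, 0.21 for Cxcr4 and 0.27 for Ackr3. Without it these were 0.22, 0.25, 0.25, 0.18 and 0.25. The 75th percentile scaling tests nothing here, because the arrays already shared 1 distribution.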
